A study of Sus scrofa with 9 samples.

Results

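The CC chemokine ligand genes CCL2, CCL3L1, CCL4, CCL5 and CCL8 and the chemokine receptor genes CCR1 and CCR7 were followed in pig myocardium after a coronary artery had been closed. They were taken from the deposited table by name, through the RefSeq accession of each row, with the longest annotated position standing for a gene. They make 7 of the 3890 genes in the table. Each of the 7 was listed at 1 position, and all 7 were among the 1987 genes whose mean reached 0.5 RPKM over all libraries, the minimum for testing. RPKM is the number of reads per kilobase of annotated span and scaled to a fixed number of reads in the library.

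CC chemokines are small secreted proteins that bind receptors coupled to G proteins on leukocytes and direct those cells towards the source of the chemokine. In injured myocardium the family is known for the recruitment of monocytes, and resident cells as well as arriving leukocytes can produce its members. The roles given for single genes are those known from human and mouse.

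The assay was GRO-seq, which captures nascent RNA in that engaged RNA polymerases extend their transcripts in isolated nuclei with a labelled nucleotide. Myocardium of the same 3 female farm pigs was compared between 3 zones, named ischemic, border zone and healthy by the submitters, with 1 library per zone and pig. Every pig had received an embolization coil in the distal part of the left anterior descending artery, and all tissue was taken 24 hours later. The healthy libraries therefore come from infarcted animals and not from untreated ones, and the labels give no age, no strain and no distance of the healthy or border zone sample from the ischemic one. All tissue was digested with collagenase before nuclei were taken, so the nuclei come from cells that passed this step. Pig 1, 2 and 3 carry the same number in each group.

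Library totals were 883656 to 2134087 reads in ischemic, 2187977 to 7005976 in border zone and 2730083 to 6531658 in healthy myocardium, so ischemic values rest on the fewest reads. Of the 63 values of the 7 genes, 31 rested on fewer than 10 reads and 10 on no read, namely 3 of 21 in ischemic, 0 of 21 in border zone and 7 of 21 in healthy libraries. Of the 33 values with 1 to 30 reads, 17 were multiples of 3 (51.5%, against 33.3% for an even spread), so reads are not known to be independent molecules. Counting intervals cover counting error only. They, and limits set from 0 reads, treat reads as independent and are too narrow where reads are not. The labelled tissue was checked against 10 cardiomyocyte markers, of which 7 were in the table, and their summed level was 58.7 to 202 RPKM in ischemic, 143 to 247 RPKM in border zone and 308 to 526 RPKM in healthy libraries.

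Ischemic myocardium was first compared with the tissue labelled healthy in the same hearts. CCL2, CCL3L1, CCR1 and CCR7 rose in ischemic myocardium, 4 of the 7 genes, and none fell (limma, adjusted p under 0.05 over 2384 positions). Over all positions tested 18.5% rose and 217 positions fell. In 5 of the 7 genes every ischemic library lay above every healthy library, which held for 28.4% of all positions. The median log2 fold change was 2.98 over the 7 genes and 0.21 over all positions tested, and all 7 fitted changes were positive. CCL3L1, CCL4, CCL8, CCR1 and CCR7 had healthy means of 0.204, 0.352, 0.244, 0.0538 and 0.013 RPKM, below the minimum of 0.5 RPKM. They entered the tests only through higher values in the other zones, which favours rises over healthy myocardium. Counts and medians of the 7 genes against healthy myocardium, in either zone, are therefore a description. In bulk tissue, fewer or more cells of a type and less or more RNA per cell cannot be told apart.

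Border zone myocardium was compared with the same healthy libraries, so both comparisons share their controls. CCL2, CCR1 and CCR7 rose, 3 of the 7 genes, and none fell, against 5.79% of all positions that rose and 5 positions that fell. In 5 of the 7 genes every border zone library lay above every healthy library, against 25.7% of all positions. The median log2 fold change was 2.76 over the 7 genes and 0.22 over all positions. Between ischemic and border zone myocardium limma called none of the 7 genes in either direction. At an unadjusted p under 0.05 it counted 1, CCR1, and limma-voom on the recovered reads called 1, also CCR1. Over all positions 0.168% were higher in ischemic than in border zone myocardium, or 4 positions, and 23 were lower. CCR1 was the 1 gene of the 7 in which every ischemic library lay above every border zone library, against 8.56% of all positions.

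**Figure D1:**
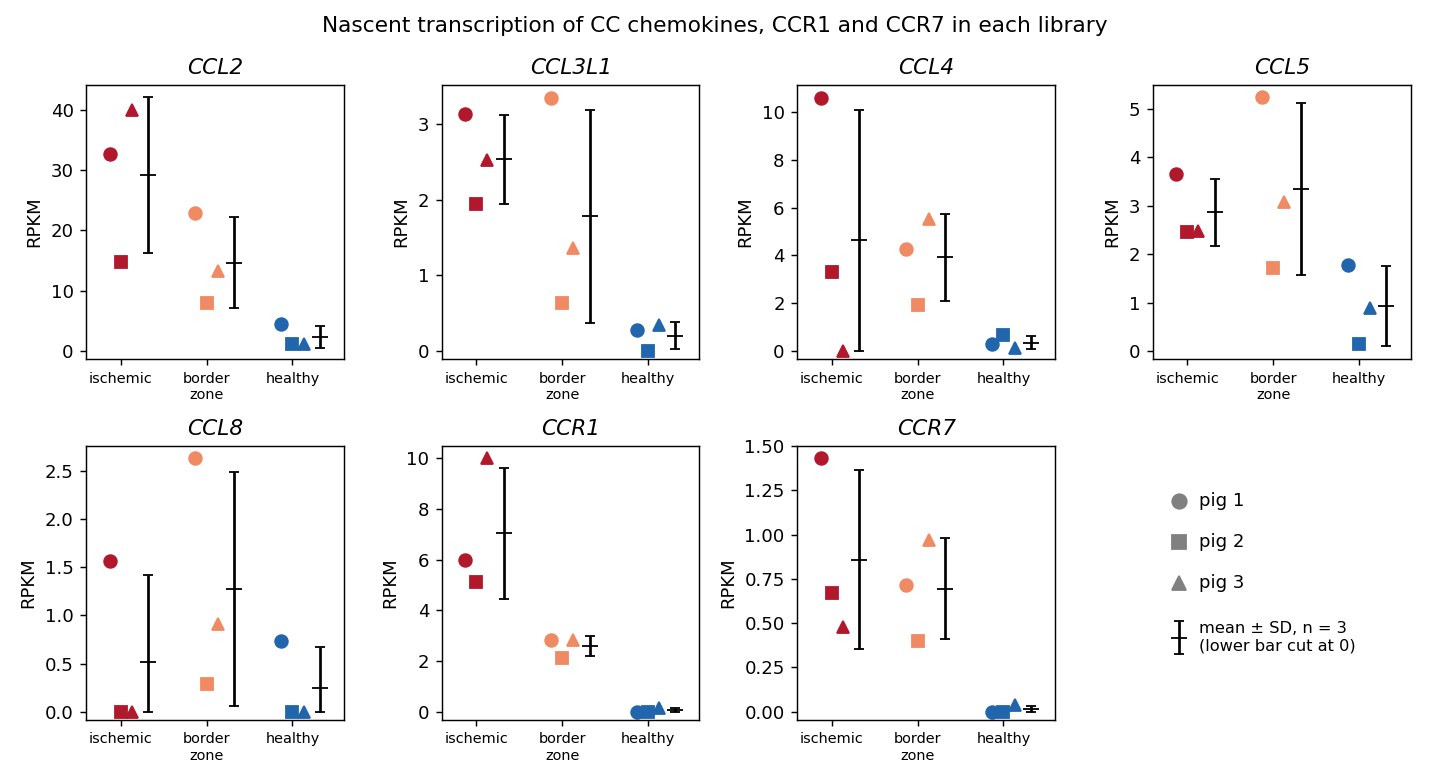
Level in RPKM (vertical axis, a separate linear scale per gene) of the 7 genes in each library, with ischemic, border zone and healthy myocardium from left to right, pigs marked by symbol, and the mean ± SD of 3 pigs beside them. CCR1 and CCR7 are near 0 in all healthy libraries, while CCL4 and CCL8 are at 0 in 1 and 2 of the 3 ischemic libraries.

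The plot of levels by library shows all 3 groups apart for CCR1, the healthy libraries below all others for CCL2, CCL3L1 and CCR7, and groups that mix for CCL8. CCL2, known as monocyte chemoattractant protein and a ligand of the receptor CCR2, is annotated as NM_214214 on chromosome 12 from 42514205 to 42516105 (susScr3, plus strand). Its level was 32.6, 14.8 and 39.9 RPKM in ischemic pigs 1 to 3, from 132, 32 and 67 reads. It was 22.8, 7.96 and 13.2 RPKM in border zone libraries and 4.43, 1.23 and 1.21 RPKM in healthy libraries. All ischemic and all border zone libraries were above all healthy ones, and in each pig the ischemic library was above that of the border zone, although the ranges of those groups overlapped. CCL2 rose 13.5-fold in ischemic over healthy myocardium, a log2 fold change of 3.76 ± 0.62 (SE, limma adjusted p = 0.00413, higher in 3 of 3 pigs). In border zone over healthy myocardium it rose 6.79-fold, 2.76 ± 0.62 on the log2 scale (limma adjusted p = 0.0397, higher in 3 of 3 pigs). These folds lean on healthy pig 1, without which they were 20.4-fold for ischemic and 10.3-fold for border zone myocardium. The border zone call was lost without any 1 of 6 of the 9 libraries, with an adjusted p of up to 0.163, and also with 0.5 added before the logarithm, without a filter, with 2 groups alone or at equal library medians (adjusted p of 0.0513, 0.063, 0.054 and 0.0605). It was kept with 0.01 added, with a filter at 2 RPKM and with the pig as a block (limma adjusted p of 0.0384, 0.0224 and 0.0113). limma-voom also called it (adjusted p = 0.00768).

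CCL8, a second monocyte chemoattractant, is NM_001164515 on chromosome 12 from 42456902 to 42458401 (plus strand). It held 5, 0 and 0 reads in ischemic libraries, 14, 3 and 3 in border zone libraries and 3, 0 and 0 in healthy libraries. Its levels were 1.56, 0 and 0 RPKM in ischemic pigs, 2.63, 0.286 and 0.915 RPKM in border zone and 0.733, 0 and 0 RPKM in healthy myocardium. In all 3 groups pig 1 gave the highest value, and the groups overlapped. An ischemic count of 0 allows up to 1.75 RPKM in pig 2 and 2.26 RPKM in pig 3, above most other values of the gene, so a difference of the ischemic group was not detectable at this depth. The log2 fold change was 0.33 ± 1.41 for ischemic (limma adjusted p = 0.886) and 2.33 ± 1.41 for border zone over healthy myocardium (limma adjusted p = 0.393, higher in 3 of 3 pigs). The sign of the ischemic change turned without ischemic pig 1, healthy pig 2 or healthy pig 3. Pooled reads gave a ratio over healthy myocardium of 5.08 (exact counting interval 0.989 to 32.7) for ischemic and 6.64 (1.97 to 34.9) for border zone myocardium. Without border zone pig 1 the latter was 2.76 (0.589 to 17.1).

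CCL3L1, CCL4 and CCL5 encode inflammatory chemokines, and CCL3L1 and CCL5 are ligands of CCR1. CCL3L1, NM_001009579 on chromosome 12 from 41061465 to 41062811 (plus strand), was weakly covered, with 9, 3 and 3 reads in ischemic, 16, 6 and 4 in border zone and 1, 0 and 3 in healthy libraries. The levels were 3.13, 1.95 and 2.52 RPKM in ischemic, 3.35, 0.636 and 1.36 RPKM in border zone and 0.272, 0 and 0.341 RPKM in healthy pigs. The ischemic values lay close together, but with 3 reads each in pigs 2 and 3 this does not establish a small spread between pigs. Every ischemic and border zone library exceeded every healthy one. CCL3L1 rose 10.2-fold in ischemic over healthy myocardium, 3.35 ± 0.68 on the log2 scale (limma adjusted p = 0.0104, higher in 3 of 3 pigs), and 6.41-fold without healthy pig 2. With 4 healthy reads in all, the fold was 4.35 when 0.5 RPKM and 25.1 when 0.01 RPKM was added before the logarithm, in place of 0.1, and both were called. Pooled over a group, the reads gave a ratio of 11.4 with an exact counting interval from 3.64 to 47.4 (95%), and a ratio of 22.2 (3.42 to 935) without healthy pig 3. The border zone change of 2.61 ± 0.68 over healthy myocardium did not pass (limma adjusted p = 0.066, higher in 3 of 3 pigs) but passed without border zone pig 2 (adjusted p = 0.0494) and with the pig as a block (adjusted p = 0.0177). Without healthy pig 2 its adjusted p was 0.172. How reads shared between CCL3L1 and close copies of the gene were counted is not stated, so its level is uncertain.

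CCL4, NM_213779 on chromosome 12 from 41048660 to 41049981 (minus strand), was 10.6, 3.32 and 0 RPKM in ischemic, 4.26, 1.94 and 5.54 RPKM in border zone and 0.277, 0.663 and 0.116 RPKM in healthy pigs. Ischemic pig 1 held the highest value of the 9 libraries and ischemic pig 3 the lowest, and that pig's 0 reads allow up to 2.57 RPKM. The border zone libraries all lay above the healthy ones, while ischemic and healthy libraries overlapped. The log2 fold change was 1.96 ± 1.53 in ischemic (limma adjusted p = 0.378, higher in 2 of 3 pigs) and 3.22 ± 1.53 in border zone over healthy myocardium (limma adjusted p = 0.273, higher in 3 of 3 pigs). Without ischemic pig 3 the changes were called, with an adjusted p of 0.0121 for ischemic and of 0.0367 for border zone myocardium, and the ischemic log2 fold change was 3.94. Without ischemic pig 1 the ischemic change was 0.56 on the log2 scale, or 1.47-fold (limma adjusted p = 0.791). Pooled reads, 35 in ischemic against 5 in healthy libraries, gave a ratio of 21.4 with an exact counting interval from 8.33 to 69.8, but of 6.27 (1.44 to 27.2) without ischemic pig 1.

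CCL5, also called RANTES and made by T cells among others, is NM_001129946 on chromosome 12 from 41222199 to 41228603 (plus strand). Its level was 3.66, 2.46 and 2.47 RPKM in ischemic, 5.23, 1.72 and 3.07 RPKM in border zone and 1.77, 0.137 and 0.885 RPKM in healthy libraries. Ischemic libraries were all above healthy ones, whereas border zone pig 2 fell just below healthy pig 1. The log2 fold change was 1.94 ± 0.71 for ischemic (limma adjusted p = 0.0753, higher in 3 of 3 pigs) and 2.05 ± 0.71 for border zone over healthy myocardium (limma adjusted p = 0.148, higher in 3 of 3 pigs). Neither passed, and with the pig as a block both did, with an adjusted p of 0.023 and of 0.047. The call of the ischemic change was also gained without healthy pig 1 (adjusted p = 0.034, limma), and limma-voom called both (adjusted p = 0.0324 and 0.0453). Without healthy pig 2 the fold over healthy myocardium was 2.14 for ischemic (limma adjusted p = 0.167) and 2.31 for border zone myocardium (limma adjusted p = 0.308). Ischemic and border zone myocardium differed by -0.10 on the log2 scale, with a 95% interval from -1.74 to 1.53 that holds differences of more than a doubling either way.

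CCR1, a receptor for CCL3, CCL5 and related ligands on monocytes and neutrophils, is NM_001001621 on chromosome 13 from 32323642 to 32330286 (minus strand). It was 5.99, 5.14 and 10.0 RPKM in ischemic libraries from 85, 39 and 59 reads, and 2.84, 2.13 and 2.82 RPKM in border zone libraries from 67, 99 and 41 reads. In healthy libraries it was 0, 0 and 0.161 RPKM from 0, 0 and 7 reads. The 3 groups stood fully apart, in the order ischemic, border zone, healthy. A healthy count of 0 allows at most 0.165 RPKM in pig 1 and 0.132 RPKM in pig 2, below every value of the other groups.

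CCR1 rose 49.9-fold in ischemic over healthy myocardium, 5.64 ± 0.42 on the log2 scale (limma adjusted p = 0.00026), and 19.4-fold in border zone over healthy myocardium, 4.28 ± 0.42 (limma adjusted p = 0.00129), in 3 of 3 pigs each. These were the changes with the smallest adjusted p of the 7 genes, and both calls held without each single library. The size depends on the 0.1 RPKM added before the logarithm, with an ischemic fold of 13.3 when 0.5 was added and of 263 when 0.01 was added, and border zone log2 fold changes of 2.49 and 6.65. Pooled reads, 183 in ischemic against 7 in healthy libraries, gave a ratio of 79.8 with an exact counting interval from 37.9 to 201, and at least 90.3-fold without healthy pig 3 where 3 reads over the group set the floor. Ischemic over border zone myocardium, CCR1 had a log2 fold change of 1.36 ± 0.42 with a 95% interval from 0.40 to 2.32, in 3 of 3 pigs. That difference did not pass in limma (adjusted p = 0.17) and passed in limma-voom (adjusted p = 0.038).

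Reads over CCR1 are not free of another gene. The annotated span of XCR1, a chemokine receptor of cross-presenting dendritic cells, runs on the same strand from 32248986 to 32330226 and covers 99.1% of the CCR1 span, so reads there cannot be told apart. XCR1 reads beyond the number counted for CCR1 were 194, 101 and 100 in ischemic, 288, 211 and 130 in border zone and 12, 8 and 21 in healthy libraries. Over the remaining XCR1 span these made 1.19 to 1.52 RPKM in ischemic, 0.403 to 1.09 RPKM in border zone and 0.0313 to 0.0589 RPKM in healthy libraries. The level over CCR1 exceeded that over the rest of XCR1 in every ischemic and border zone library.

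CCR7, the receptor for CCL19 and CCL21 that guides dendritic cells and T cells to lymph nodes, is NM_001001532 on chromosome 12 from 22140218 to 22152033 (plus strand). Its level was 1.43, 0.668 and 0.479 RPKM in ischemic, 0.715, 0.399 and 0.967 RPKM in border zone and 0, 0 and 0.0389 RPKM in healthy libraries. Every ischemic and border zone library lay at least an order of magnitude above healthy pig 3, the healthy library with 3 reads. CCR7 rose 7.88-fold in ischemic over healthy myocardium, 2.98 ± 0.62 on the log2 scale (limma adjusted p = 0.0111), and 6.78-fold in border zone over healthy myocardium, 2.76 ± 0.62 (limma adjusted p = 0.0397), in 3 of 3 pigs each. The border zone call was lost without any 1 of the 9 libraries, with an adjusted p of up to 0.168, and with the pig as a block (adjusted p = 0.0514). It was also lost with 2 groups alone and at equal library medians (limma adjusted p of 0.085 and 0.0609). It was kept without a filter (limma adjusted p = 0.0228) and in limma-voom (adjusted p = 0.00173). The ischemic call was lost with 2 groups alone (adjusted p = 0.0502). The fitted ischemic fold was 2.53 with 0.5 added and 45.9 with 0.01 added, and the border zone fold was 2.28, no longer called (adjusted p = 0.0798), and 38.9. Pooled reads, 50 in ischemic and 88 in border zone against 3 in healthy libraries, gave ratios of 50.8 (exact interval 16.4 to 255) and 29.2 (9.67 to 144). Without healthy pig 3 the ratios were at least 24.7 and at least 14.2, and without ischemic pig 1 the first was 29.2 (8.16 to 159).

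Between ischemic and border zone myocardium, the log2 fold change of CCL2 was 0.99 with a 95% interval from -0.43 to 2.41 (limma adjusted p = 0.494, higher in 3 of 3 ischemic pigs). CCL3L1 stood at 0.74 (-0.82 to 2.31) and CCR7 at 0.22 (-1.20 to 1.63), each higher in 2 of 3 ischemic pigs. CCL4 stood at -1.26 (-4.79 to 2.27) and CCL8 at -2.00 (-5.24 to 1.24). The ischemic value of CCL8 was the lower one in all 3 pigs, but in pigs 2 and 3 it rests on 0 reads, whose upper limit exceeds the border zone value, so their order is not established. All 5 intervals include 0 and also changes of more than a doubling, so these data set no narrow bound on the difference between the zones.

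**Figure D2:**
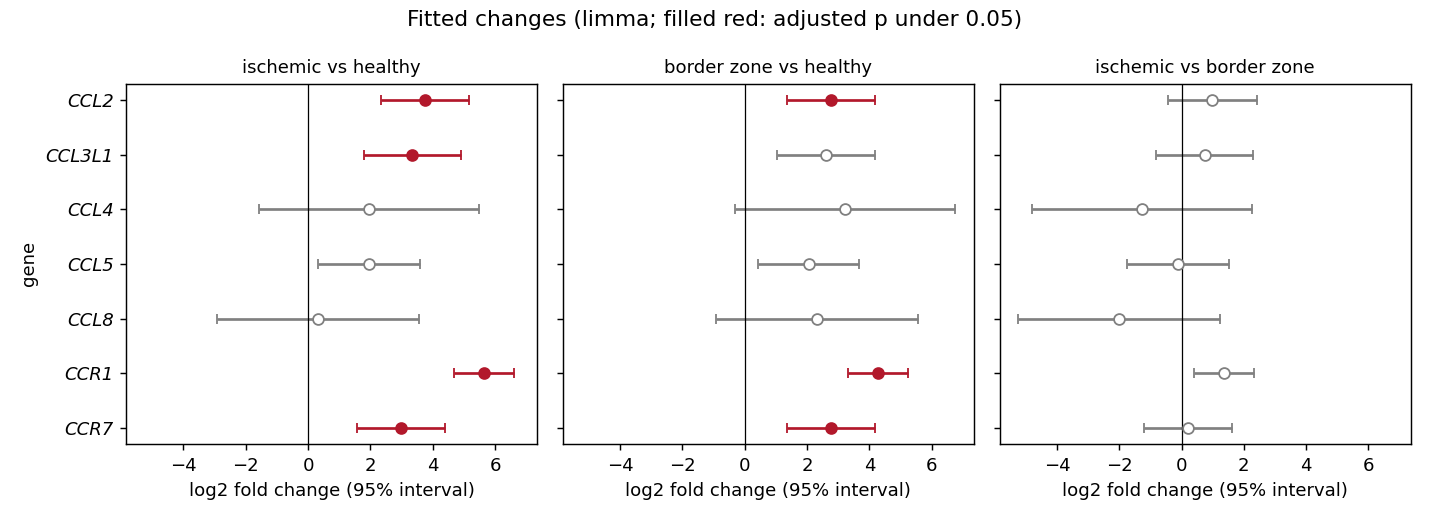
Fitted log2 fold change (horizontal axis) with its 95% interval for each of the 7 genes in ischemic over healthy, border zone over healthy and ischemic over border zone myocardium, from limma on 9 libraries. Filled red points passed an adjusted p of 0.05, which 4, 3 and 0 genes did, and the intervals of CCL4 and CCL8 are the widest of the 7.

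The plot of fitted changes shows the largest change and the narrowest interval of the 7 genes at CCR1 in both comparisons with healthy myocardium. Levels per length could also be ordered within each group. CCL2 was first in every group, at 29.1 ± 12.9 RPKM in ischemic, 14.7 ± 7.54 in border zone and 2.29 ± 1.86 in healthy myocardium (mean ± SD, n = 3). In ischemic myocardium CCR1 followed at 7.06 ± 2.62 RPKM and then CCL4 at 4.65 ± 5.45, CCL5 at 2.87 ± 0.687, CCL3L1 at 2.54 ± 0.59, CCR7 at 0.858 ± 0.502 and CCL8 at 0.521 ± 0.902. Only the steps below CCL2 and below CCL3L1 separated ranges that did not overlap. In border zone myocardium CCL4 at 3.91 ± 1.82 RPKM and CCL5 at 3.34 ± 1.77 preceded CCR1 at 2.6 ± 0.406, CCL3L1 at 1.78 ± 1.4, CCL8 at 1.28 ± 1.21 and CCR7 at 0.694 ± 0.285, and the single step without overlap was that below CCL2. In healthy myocardium CCL5 at 0.931 ± 0.819 RPKM, CCL4 at 0.352 ± 0.281, CCL8 at 0.244 ± 0.423 and CCL3L1 at 0.204 ± 0.18 preceded CCR1 at 0.0538 ± 0.0931 and CCR7 at 0.013 ± 0.0224, with overlap at every step.

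The 5 ligands together reached 51.6, 22.5 and 44.9 RPKM in ischemic, 38.3, 12.5 and 24.1 RPKM in border zone and 7.49, 2.03 and 2.55 RPKM in healthy pigs. Pig 2 had the lowest sum in all 3 groups and pig 1 the highest. CCL2 made 63.2%, 65.6% and 88.9% of the sum in ischemic, 59.6%, 63.5% and 54.9% in border zone and 59.2%, 60.6% and 47.4% in healthy libraries. Its share was thus above that of every border zone library in 2 of 3 ischemic pigs, with ischemic pig 1 between them. CCL5 made 5.51% to 11% of the sum in ischemic, 12.7% to 13.7% in border zone and 6.74% to 34.7% in healthy libraries. The highest ischemic share of CCL5, 11%, lay below the lowest border zone share, 12.7%, while the healthy range covered much of both. The levels of CCL5 in RPKM overlapped between these 2 zones, so the gap concerns the shares alone. In ischemic pigs 2 and 3 the shares of CCL4, CCL3L1 and CCL8 rest on 0 to 5 reads each. In the healthy libraries the shares of CCL4, CCL3L1 and CCL8 rest on 0 to 3 reads each, and the 6.74% of CCL5 in pig 2 on 3 reads.

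**Figure D3:**
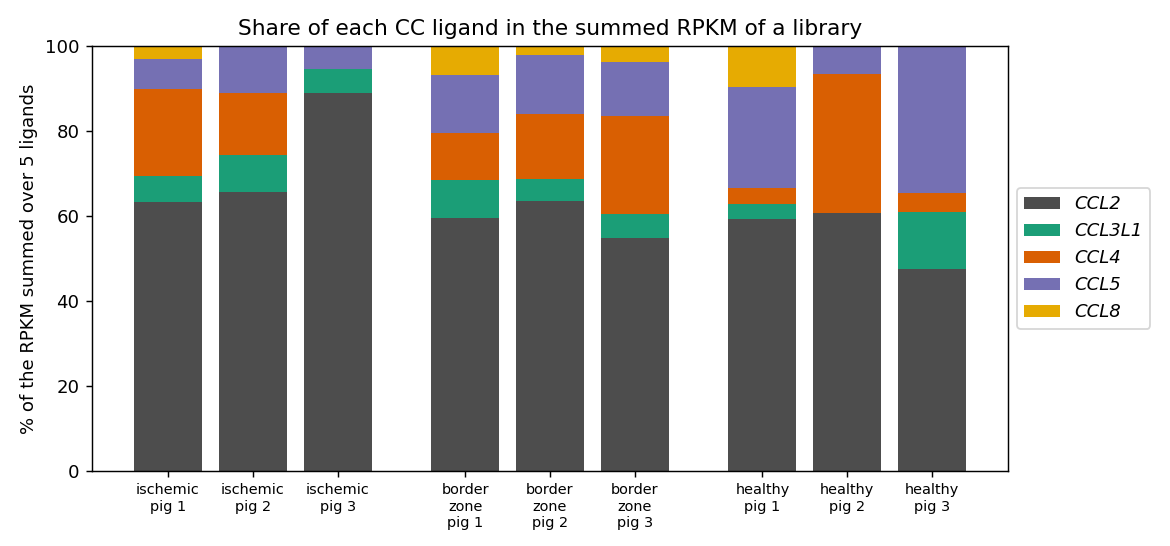
Share (%) of CCL2, CCL3L1, CCL4, CCL5 and CCL8 in the RPKM summed over these 5 ligands, as 1 stacked bar per library, for ischemic, border zone and healthy myocardium of pigs 1 to 3 from left to right. CCL2 takes 47.4% to 88.9% of every bar, and ischemic pig 3 shows no CCL4 and no CCL8.

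The stacked shares show that the ligand with the highest level was the same in every library. The ligand genes lie in 2 groups on chromosome 12, as is known of the mammalian family, and their neighbours in the table allow a look along the chromosome. Between CCL3L1 and CCL5 lies CCL14, with 8 reads in ischemic, 15 in border zone and 14 in healthy libraries, or 0.316 ± 0.547, 0.227 ± 0.205 and 0.323 ± 0.201 RPKM. It stayed below the minimum for testing. Beyond CCL5, AP2B1, which encodes an adaptor of clathrin coats, had 1.06 ± 0.238 RPKM in ischemic and 1.38 ± 0.177 in healthy myocardium, a log2 fold change of -0.37 ± 0.22 (limma adjusted p = 0.242).

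In the other group, CCL8 and CCL2 are interleaved with CCL11, a ligand of CCR3, and CCL1, a ligand of CCR8. CCL11 held 2 reads in ischemic, 1 in border zone and 0 in healthy libraries, and CCL1 held 0 in all 9. CCL2 thus had 231 reads in ischemic and 315 in border zone libraries where its listed neighbours had 0 to 20. Next to CCR1 on chromosome 13, FYCO1, an adaptor for vesicle transport, fell to 0.885 ± 0.123 RPKM in ischemic, against 2.44 ± 0.25 in healthy myocardium (log2 fold change -1.37 ± 0.19, limma adjusted p = 0.0025). CCR3, on the other side and on the opposite strand, had 0.164 ± 0.0988 RPKM in ischemic, 0.142 ± 0.0712 in border zone and 0.0292 ± 0.0162 in healthy myocardium and was too low for testing. No source used here says whether the counting used strand.

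**Figure D4:**
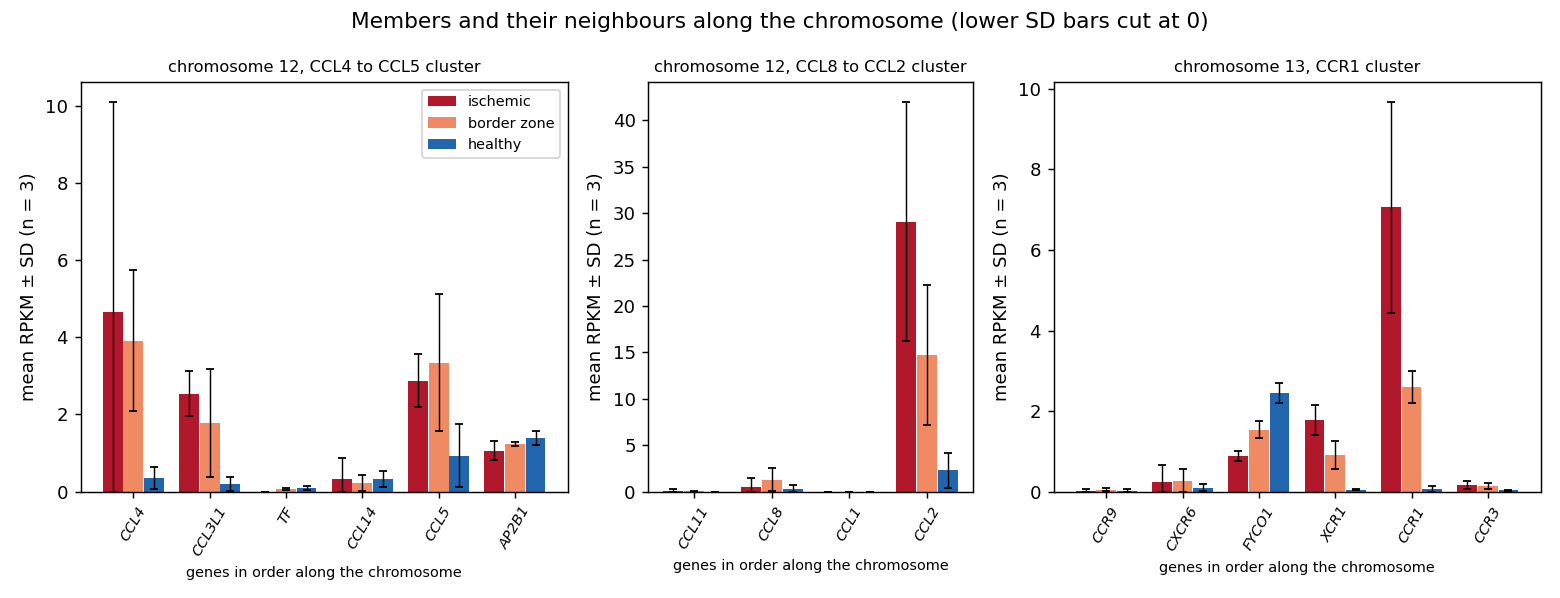
Mean level in RPKM with SD over 3 pigs (vertical axis, linear, a separate scale per panel) of chemokine and receptor genes and their neighbours, in their order along chromosome 12 (left and middle) and chromosome 13 (right), with ischemic, border zone and healthy bars side by side. CCL2 at 29.1 RPKM and CCR1 at 7.06 RPKM in ischemic myocardium stand above neighbours such as CCL14 and CCR3, which are below 0.4 RPKM in all groups.

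The bars along the chromosomes show higher ischemic than healthy means at CCL4, CCL3L1, CCL5, CCL2, CCR1 and XCR1, and at CCL8 from 5 ischemic reads. The means of CCR3, CXCR6 and CCL11, which were not tested, were also higher, from 61, 3 and 2 ischemic reads. Coverage of the nearby genes varied. CCL1 held 0 reads, while XCR1, AP2B1 and FYCO1 held 578, 388 and 149 reads in ischemic libraries. Among 17 other CC ligands, 12 were in the table and 1, CCL21, reached the minimum for testing, and limma called none in any comparison, as did limma-voom, with 0 at an unadjusted p under 0.05. CCL21, a ligand of CCR7, had 2.4 ± 2.35 RPKM in ischemic, 0.422 ± 0.366 in border zone and 1.27 ± 1.66 in healthy myocardium, with a log2 fold change of 0.78 ± 1.76 over healthy tissue (limma adjusted p = 0.774). CCL19, the other ligand of CCR7, held 0 reads in ischemic, 3 in border zone and 0 in healthy libraries. CCL20, the ligand of CCR6, held 8, 11 and 0 reads in the same order, and CCL22, a ligand of CCR4, held 3, 10 and 1. CCL17, CCL25, CCL27 and CCL28 held 3, 3, 0 and 13 reads in ischemic, 0, 4, 0 and 32 in border zone and 0, 9, 3 and 17 in healthy libraries, and CCL24 held none.

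Of 21 other chemokine receptors 12 were in the table and 8 were tested. In ischemic over healthy myocardium 5 rose and none fell, with a median log2 fold change of 2.42, and in border zone over healthy myocardium 4 rose, with a median of 2.10. Over all positions 18.5% rose in ischemic and 5.79% in border zone over healthy myocardium, with medians of 0.21 and 0.22. CCR2, the receptor of CCL2 and CCL8, had 5.19 ± 2.95 RPKM in ischemic, 2.54 ± 0.871 in border zone and 0.217 ± 0.0398 in healthy myocardium, a log2 fold change of 3.84 ± 0.50 for ischemic (limma adjusted p = 0.00192) and 3.01 ± 0.50 for border zone (limma adjusted p = 0.0145). CXCR4, the receptor of CXCL12, rose by 3.91 ± 0.69 in ischemic myocardium, CCRL2, an atypical receptor, by 1.73 ± 0.37, and XCR1, whose span includes CCR1, by 3.68 ± 0.35, and all 3 also passed in border zone myocardium.

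The remaining tested receptors were not called in ischemic over healthy myocardium. They were CCR10 at -0.60 ± 1.39, ACKR1 at 2.76 ± 1.28 and ACKR2 at -0.78 ± 1.49 on the log2 scale, the last pair being decoy receptors that bind CC chemokines without the usual signal. ACKR1 held 7 reads in ischemic, 10 in border zone and 0 in healthy libraries. CCR9, CXCR6 and ACKR4 held 3, 3 and 0 reads in ischemic, 9, 13 and 4 in border zone and 5, 7 and 5 in healthy libraries and were not tested. No receptor of the list was called between ischemic and border zone myocardium by limma or limma-voom, with 1 at an unadjusted p under 0.05 and a median log2 fold change of 0.18.

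Of 18 CXC, CX3C and XC ligands 11 were in the table, and both of those tested rose in ischemic and in border zone over healthy myocardium. CXCL2, a neutrophil attractant, had 24.3 ± 5.02 RPKM in ischemic and 17.5 ± 2.36 in border zone against 3.12 ± 0.747 in healthy myocardium, and AMCF-II, a pig neutrophil attractant, had 3.45 ± 0.937 and 0.89 ± 0.495 against 0.0716 ± 0.124 RPKM. CXCL8, a further neutrophil attractant, stands in the list by its longest position, a scaffold copy with 0 reads in all libraries. Its position on chromosome 8 had 65.1 ± 24.0 RPKM in ischemic, 53.1 ± 20.4 in border zone and 1.7 ± 0.968 in healthy myocardium, from 893, 1967 and 70 reads, and its means in ischemic and border zone myocardium exceed those of CCL2 and CXCL2. Of 30 genes of chemokine receptor signalling 12 were in the table and 10 were tested, of which 6 rose in ischemic (median log2 fold change 1.09) and 3 in border zone over healthy myocardium (median 0.94). Over all positions 18.5% and 5.79% rose. The signalling genes called in both zones were RGS2, which limits G protein signals, at 2.46 ± 0.49 in ischemic over healthy myocardium, PIK3R5, the regulatory subunit of a kinase activated by them, at 2.48 ± 0.53, and VAV1, an exchange factor for small GTPases, at 2.34 ± 0.51. ITGB2, the chain shared by leukocyte integrins, at 1.77 ± 0.53, JAK2 at 0.71 ± 0.21 and STAT3 at 0.80 ± 0.18 were called in ischemic over healthy myocardium.

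A list of 23 genes held inducers of CC chemokine genes, factors that act on their promoters and regulators of these, such as the inhibitor NFKBIA. Of the 23 genes 21 were in the table and 17 were tested. In ischemic over healthy myocardium 12 rose and none fell (median log2 fold change 2.23), and in border zone over healthy myocardium 9 rose (median 2.00). Over all positions 18.5% and 5.79% rose in these comparisons, with medians of 0.21 and 0.22. IL1B, a cytokine that induces CCL2, rose by 5.80 ± 0.39 in ischemic (limma adjusted p = 0.000225), IL1A by 5.29 ± 0.43, CD14 by 4.37 ± 0.50, IL6 by 3.76 ± 0.55 and TLR4 by 3.56 ± 0.42. FOS, MYD88, TLR2, NFKBIA, SPI1, IRF1 and STAT3, which also stands in the signalling list, rose by 3.05, 2.86, 2.40, 2.23, 2.22, 1.36 and 0.80. TNF at 1.64 ± 0.65, CEBPB at 1.77 ± 0.63, RELA at 1.17 ± 0.40, NFKB1 at 0.82 ± 0.57 and JUN at 0.17 ± 0.30 were not called. Genes near 0 in healthy myocardium entered the tests of all these lists only where another zone was high.

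Markers of cell types were counted beside the chemokine and receptor genes. For these and the marker lists below, 18.5% of all positions rose in ischemic and 5.79% in border zone over healthy myocardium. Markers near 0 in healthy myocardium were likewise tested only where another zone was high. Of 12 macrophage and monocyte markers 9 were in the table and 6 were tested, of which 6 rose in ischemic and 3 in border zone over healthy myocardium. The summed level of the 9 was 25.2 to 29.9 RPKM in ischemic, 9.6 to 21.5 in border zone and 1.56 to 3.6 in healthy libraries, with CD163 at 0 in all 9 libraries. FCGR1A, not tested, went the other way, with 4 reads in ischemic, 12 in border zone and 15 in healthy libraries. MRC1, also not tested, had 0.25 to 0.527 RPKM in ischemic and 0.193 to 0.334 RPKM in healthy libraries. Of 10 neutrophil markers 5 were in the table and 4 tested, with 3 higher in ischemic and 2 in border zone over healthy myocardium. They summed to 14.1 to 30.3 RPKM in ischemic, 5.28 to 10.9 in border zone and 0.0995 to 0.323 in healthy libraries, where S100A8, S100A9 and S100A12 were at 0. The part of these cells in the levels of CCL2, CCL3L1, CCR1 and CCR7 was not tested.

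Of 10 markers of T cells and natural killer cells, which can produce CCL5 and CCL4, 8 were in the table and 3 were tested. None was called by limma or limma-voom against healthy myocardium, with 0 in ischemic and 1 in border zone myocardium at an unadjusted p under 0.05. They summed to 4.18 to 6.48 RPKM in ischemic, 3.47 to 7.17 in border zone and 1.51 to 3.41 in healthy libraries. Dendritic cell markers include CCR7 and XCR1. Without these, CD80, CD86 and IRF8 summed to 3.13 to 10.4 RPKM in ischemic, 4.93 to 8.14 in border zone and 0.582 to 1.1 in healthy libraries. B cell markers, 4 of 5 in the table and none tested, summed to 0.526 to 1.44, 0.259 to 2.59 and 0 to 0.343 RPKM in the same order, with CD79B at 0 in healthy libraries. Endothelial markers, 3 of 8 in the table, had 2 higher in ischemic over healthy myocardium and sums of 11.4 to 27.0, 6.25 to 14.9 and 4.99 to 7.16 RPKM in the same order. Fibroblast markers, 5 of 7 in the table, had 2 higher and sums of 12.2 to 16.7, 10.4 to 12.7 and 8.46 to 11.6 RPKM. DCN and LUM of this list did not share the rise. DCN had 1.03 to 2.01 RPKM in ischemic and 1.38 to 2.99 in healthy libraries, and LUM 0.753 to 3.15 and 2.32 to 2.88. Of the 7 tested cardiomyocyte markers 5 fell in ischemic over healthy myocardium, 0 were called in border zone over healthy myocardium (4 at an unadjusted p under 0.05, and 3 in limma-voom) and 1 was lower in ischemic than in border zone myocardium. Of all 2384 positions tested 217, 5 and 23 were lower in the same order of comparisons.

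Genes with the most similar pattern were named by Pearson's r of log2 levels over the 9 libraries, which fall into 3 zones and share the normalization, so these values are a description. For CCR1 they were HBEGF, a growth factor of the EGF family, at r of 0.991 and TNC, a matrix protein, at 0.987. CCR7 came closest to NLRP3, an inflammasome sensor, at 0.988 and to AP3B1 at 0.986. CCL2 came closest to ST8SIA4 and FTH1, the ferritin heavy chain, at 0.985 each, and CCL3L1 to CFL1 at 0.989 and PSAP at 0.980. CCL5 came closest to TLR6 at 0.970 and IL10 at 0.954, and CCL4 to NAGPA at 0.971 and RABAC1 at 0.953. For CCL8 the closest gene, GRPEL2, reached a lower value of 0.908.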

How the data were processed

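GRO-seq libraries of 3 zones in 3 pigs were grouped by title, and same-numbered libraries come from 1 pig per the labels' animal number. Deviations from group means correlated at -0.0367 to 0.179 between libraries of 1 pig (9 pairs) and at -0.156 to 0.0816 between pigs (18 pairs). The authors aligned reads to susScr3 with Bowtie, per the submitters' processing notes, and deposited RPKM per annotated span, introns included. Not given in the sources used here are the version, the counting program, the strand setting and the handling of duplicate and multiply mapped reads. RPKM times span times library total was whole within 0.01 reads for 100% of values, which gave the reads. Symbols came from a RefSeq table on Sscrofa11.1, which matched 4793 of 4882 positions (98.2%) and gave no coordinates here.

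Tests covered 2384 positions whose mean reached 0.5 RPKM, on log2(RPKM + 0.1), so a fold change understates the change of low genes. limma 3.58.1 in R 4.3.3 (trend, robust eBayes, 3 groups, 9 libraries, 2-sided) was used with Benjamini-Hochberg adjustment over all positions in each comparison and a threshold of 0.05. It was tested on simulated data. Ratios of pooled reads carry exact conditional 95% intervals and, where a group held no read, a floor of 3 reads over the group. They were added after the data were seen. Alternatives were other pseudocounts and filters, leaving out each library, the pig as a block, 2 groups, equal medians, limma-voom on reads and the position with the highest mean. All 7 genes are named, of the other chemokine, receptor and signalling lists every gene called in ischemic over healthy myocardium and every CC ligand or receptor, and the 2 genes most like each, except for a few genes that are not reported here. The genes and lists were chosen with earlier results of these data known. Tables and plots used Python 3.11.15 with scipy 1.17.1, matplotlib 3.10.9, pandas 2.3.3 and numpy 2.4.6.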

Additional observations from a re-analysis of the deposited data

How the results depend on the processing

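The 7 genes were fitted under 369 alternatives over the 3 comparisons, of which 326 kept the direction and the side of the threshold, 24 lost a call, 11 gained one and 8 changed sign, with causes that were not tested. Changes of sign were those of CCL8 in ischemic over healthy myocardium, at -1.02 without ischemic pig 1, -0.18 without healthy pig 2 and -0.18 without healthy pig 3 (up to 1.35 without another library). In ischemic over border zone myocardium CCL4 turned to 0.71 without ischemic pig 3 (down to -2.66), CCL5 to 0.28 without border zone pig 1 (down to -0.50) and to 0.12 in limma-voom, and CCR7 to -0.18 without ischemic pig 1 and -0.09 without border zone pig 2 (up to 0.52). CCR7 lost its call in ischemic over healthy myocardium when those 2 groups were fitted alone (adjusted p = 0.0502, limma). Over all positions, ischemic over healthy calls were 659, or 346 with a filter at 2 RPKM, which tests fewer positions, and 362 to 698 without 1 library, lowest without healthy pig 2. At equal library medians 337 rose and 295 fell, against 442 and 217, since the median of all positions was 0.21. Border zone over healthy calls were 143, and 86 with 0.5 added, 95 without a filter, 76 with the filter at 2 RPKM, 84 at equal medians, 296 in limma-voom and 36 to 174 without 1 library. Ischemic over border zone calls were 27, and 10 with 0.5 added, 3 without a filter, 1 with 2 groups, 8 at equal medians, 92 in limma-voom and 0 to 39 without 1 library. With the pig as a replicate block, calls were 752, 205 and 29 in the same order of comparisons, and calls of the 7 genes changed for CCL5 in both comparisons with healthy myocardium and for CCL3L1 and CCR7 in border zone over healthy myocardium, and for no other. With the filter at 2 RPKM, ischemic over healthy calls were 3 receptors, 1 CXC ligand and 2 signalling genes, and border zone calls 2, 1 and 1. CXC ligand calls in ischemic over healthy myocardium were 5 without a filter and 4 at the position with the highest mean, and in border zone over healthy myocardium 1 with 0.5 or 0.01 added, without a filter, with 2 groups, at equal medians and in limma-voom. Border zone signalling calls were 1 with 0.5 added, 0 without a filter, 0 at equal medians and 5 in limma-voom. Without 1 library, ischemic over healthy calls were 0 to 0 other CC ligands, 4 to 6 receptors, 2 to 2 CXC ligands, 3 to 8 signalling genes and 10 to 14 genes of the inducer list. Border zone calls were 1 to 4 receptors, 1 to 2 CXC ligands, 0 to 4 signalling genes and 4 to 10 genes of the inducer list.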
